A study of Aspergillus nidulans with 12 samples.

Results

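This report describes how the transcriptome of the TNJ92 ΔatfA mutant of the filamentous fungus *Aspergillus nidulans* changed in submerged cultures exposed to cadmium chloride. The libraries were chosen by their labels, as 3 CdCl2-treated and 3 untreated TNJ92 libraries out of the 12 RNA sequencing libraries of the series, and every gene with enough reads was included. TNJ92 carries pyrG89 with the AfupyrG+ marker and pyroA4, with a pyroA marker in place of atfA, and the THS30 reference strain, which gave the other 6 libraries, carries the same background with an intact atfA and pyroA+. Cultures of both strains were grown for 16 h, and the treated ones then received 0.2 mM CdCl2 and were harvested 0.5 h later, so that each group stands for 1 strain, 1 dose and 1 time. Each group held 3 biological replicates. The deposited table held 10988 features, of which 10748 were genes, and 9070 features had enough counts to be tested.

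Cadmium is a toxic metal that binds tightly to thiol groups and can displace zinc, iron and copper from proteins. Fungal cells handle it with glutathione, with cysteine-rich proteins, and with pumps and vacuolar transporters. AtfA is a basic leucine zipper transcription factor of the ATF/CREB type that acts below the SakA/HogA mitogen-activated protein kinase. A phosphorelay of sensor histidine kinases, a phosphotransfer protein and response regulators feeds that kinase. The comparison of treated with untreated TNJ92 cultures asks which genes answered cadmium where AtfA was missing.

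The 6 TNJ92 libraries held between 12119719 and 13641031 counts, within a range of 8721119 to 13641031 over all 12. The values below are CPM, counts made relative to sequencing depth and scaled by the trimmed mean of M values (TMM) normalization. Pairwise Pearson correlations of log2(CPM + 1) between replicates of a group were 0.989 to 0.997. The deleted gene, atfA, had 17.3, 19.2 and 25.4 CPM in treated and 26.7, 27.4 and 26.1 CPM in untreated TNJ92, against 242, 232 and 242 CPM in treated and 357, 331 and 301 CPM in untreated THS30. The libraries labelled TNJ92 thus held the low atfA level in all 6 cases, although reads were still assigned to this gene, which does not show which stretch of it gave them. None of 9 markers of conidiophores and conidia and of 4 markers of sexual structures was at 0 in all libraries of a group. The 9 markers summed to 35.6 to 47.4 CPM in treated and 34.5 to 101.5 CPM in untreated TNJ92, with 1 marker up-regulated and 1 down-regulated, and the 4 to 294.9 to 330.9 CPM in treated and 185.9 to 207.9 CPM in untreated TNJ92, with 1 up-regulated. brlA, the central activator of conidiophore development, had 5.57, 4.73 and 4.58 CPM in treated and 1.35, 1.49 and 2.703 CPM in untreated TNJ92. It was the only riser of the 9, and yA was the marker that fell. The sums of the 9 overlapped between treated and untreated TNJ92. The part of these structures in the results below was not tested. These are bulk libraries, in which fewer cells of a type and less RNA per cell cannot be told apart.

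Cadmium changed 5122 genes of TNJ92, or 56.5% of those tested, in both directions. In treated against untreated TNJ92 cultures, 2568 genes (28.3% of the 9070 tested) were up-regulated and 2554 genes (28.2%) were down-regulated, by edgeR's quasi-likelihood test at an adjusted p under 0.05. With a log2 fold change of at least 1 the counts were 910 up-regulated and 523 down-regulated genes (15.8% together), and with at least 2 they were 249 and 51. The CPM ranges of the 3 treated and the 3 untreated libraries did not overlap for 2442 of the up-regulated and 2422 of the down-regulated genes, while over all tested genes 30.6% had every treated library higher and 30.2% had every treated library lower. The first principal component of the 6 libraries held 83.1% of the variance and separated treated from untreated cultures. The median log2 fold change over all genes was 0.00, and scaling by library totals in place of TMM moved it by 0.15, with 3307 genes up-regulated and 1833 down-regulated (64.3% of the called genes higher, against 50.1% with TMM). Changes are given relative to the TMM scale.

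The strongest rises in TNJ92 started from low levels. AN0656, annotated as a methylase-domain protein that increases during osmoadaptation, had 169.7, 193 and 148 CPM in treated and 1.75, 3.59 and 3.38 CPM in untreated TNJ92, a log2 fold change of 5.87 ± 0.32 (SE). AN3883, a putative glucanase of beta-glucan hydrolysis, reached 15.5, 18.3 and 16.1 CPM in treated libraries, against 0.239, 0.263 and 0.526 CPM in untreated ones (log2 fold change 5.53 ± 0.27). AN3491, a predicted membrane transporter of the inp secondary metabolite cluster, had 13.002, 18.9 and 13.4 CPM after treatment and 0.08, 0.613 and 0.526 CPM without it (5.19 ± 0.36). Groups that did not overlap were a condition for the 15 largest rises and falls, so their separation is no further support. The largest fitted value belonged to AN5056, for which the files used here give no function. Its summed counts were 724 in treated and 4 in untreated TNJ92, a ratio of 169 with an exact 95% interval of 65.8 to 623 that covers counting error only. In THS30 the same gene had 604, 569 and 679.6 CPM with and 793, 688 and 609.8 CPM without cadmium, so that its level in treated TNJ92 stayed far under that of either THS30 group.

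The other genes among the 15 largest rises had fitted log2 fold changes between 4.20 for AN2358 and 5.24 for AN9320. AN5053, AN5330, AN6397, AN11209 and AN6668 are given no function in the files used here. AN5053 had 179, 192 and 161 CPM in treated TNJ92, against 8.28, 7.71 and 10.1 CPM in untreated TNJ92. AN5330 had 119, 125 and 102 CPM after treatment, against 3.103, 7.18 and 7.58 CPM without it. AN6397 had 35.9, 55.7 and 44.2 CPM in treated and 1.51, 2.98 and 2.48 CPM in untreated cultures. AN11209 was the most abundant gene of this group with 244, 247 and 196 CPM in treated and 5.73, 7.88 and 10.1 CPM in untreated cultures, and AN6668 had 78.01, 80.2 and 64.1 against 2.55, 3.42 and 5.71 CPM. AN3976, AN5453, AN8330 and AN8402 had log2 fold changes of 4.38, 4.34, 4.70 and 4.27, and no function is given for them either. All treated libraries of these genes were above all untreated ones, which the choice of genes required.

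**Figure D1:**
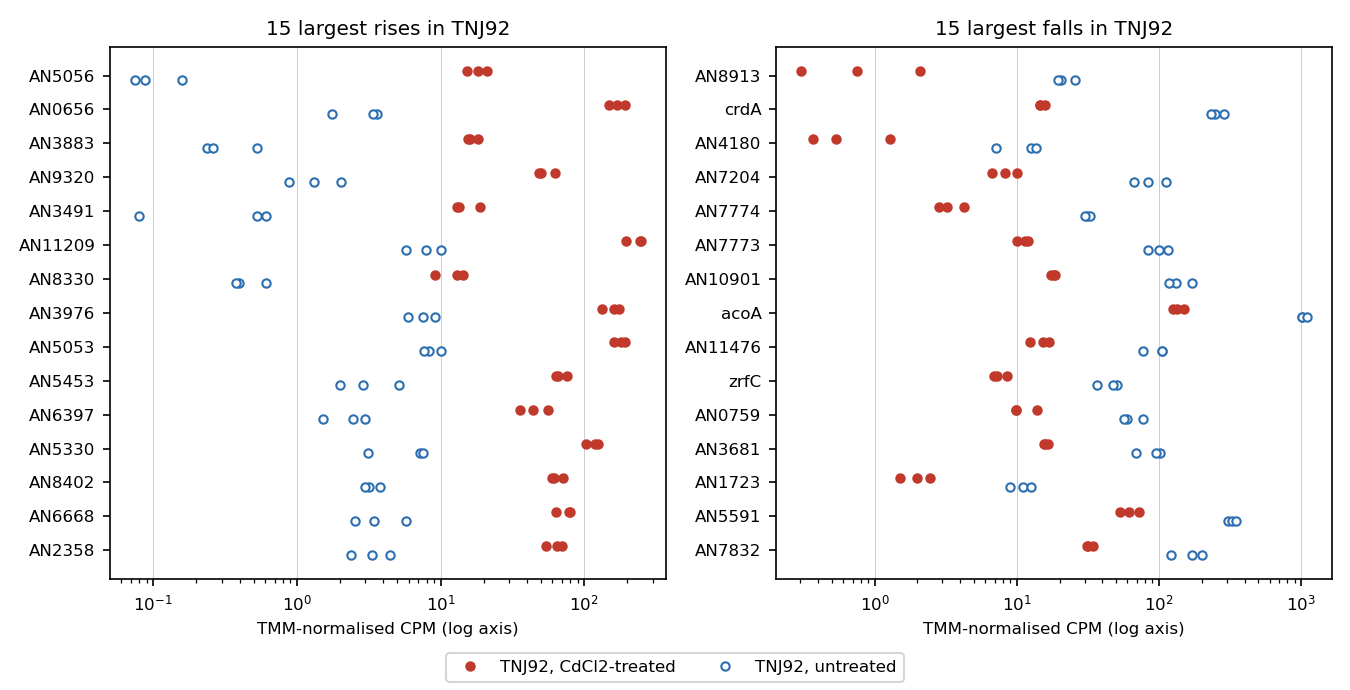
TMM-normalised CPM, on a log axis, of the 15 largest rises (left panel) and the 15 largest falls (right panel) among genes called in TNJ92, with 1 point for each library (3 CdCl2-treated, filled; 3 untreated, open). Groups that do not overlap were a condition for the genes shown. crdA, for example, sits at 15.8, 14.7 and 14.6 CPM in the treated libraries and at 248, 285 and 233 CPM in the untreated ones.

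Several of the 15 largest falls were in genes of known function. crdA, which encodes a cysteine-rich metallothionein-type protein, had 15.8, 14.7 and 14.6 CPM in treated and 248, 285 and 233 CPM in untreated TNJ92 (log2 fold change -4.09 ± 0.25). acoA, which encodes aconitase, an iron-sulfur enzyme of the tricarboxylic acid cycle, had 125, 135 and 151 CPM in treated libraries, against 1016, 1019.9 and 1094 CPM in untreated ones (-2.93 ± 0.19). zrfC, whose orthologs take up zinc, had 8.47, 6.95 and 7.21 CPM after treatment and 50.6, 47.8 and 36.4 CPM without it (-2.57 ± 0.16). Each of them was lower in every treated library than in any untreated one, which the choice of genes required. AN10901, with no function in the files used here, had 18.5, 17.3 and 18.2 CPM in treated TNJ92 and 132, 118 and 169.5 CPM in untreated TNJ92. AN8913 had the largest fall by fitted value, with 2.08, 0.305 and 0.751 against 20.6, 25.7 and 19.6 CPM, followed after crdA by AN4180 with 0.371, 0.534 and 1.28 against 7.16, 12.6 and 13.7 CPM. AN7204, AN7773 and AN7774 had log2 fold changes of -3.38, -3.17 and -3.19, and AN0759, a cysteine-rich protein gene, had -2.52. AN11476, AN1723, AN3681, AN5591 and AN7832 completed the 15 with log2 fold changes between -2.69 for AN11476 and -2.34 for AN7832.

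The genes were next read as functional groups, of which most were put together by the study, which read them in these same libraries. Their directions are therefore no independent evidence, and each count below is to be read against the shares of all tested genes, 28.3% up-regulated and 28.2% down-regulated. Members given with CPM values were mostly picked for large called changes. Ranges that do not overlap were usual among called genes, so where they are stated below they are no further support. "Ribosome biogenesis" was the largest group. It supplies the structural proteins of both ribosomal subunits and the factors that process ribosomal RNA and assemble the particles. Of its 185 tested genes, 135 were down-regulated and 10 up-regulated in TNJ92, with a median log2 fold change of -0.54. The group was divided here, by words in the annotation, into structural proteins and other genes, a division that can misplace single members. Among the structural proteins 28 of 29 fell (median -1.45), and among the remaining processing and assembly genes 107 of 156 fell (median -0.46).

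rpl3, which encodes ribosomal protein L3, had 714, 665 and 786 CPM in treated and 2452, 2564 and 2446 CPM in untreated TNJ92 (log2 fold change -1.78 ± 0.14). rps1, named for a small-subunit protein but placed with the assembly genes by the division used here, had 814, 843 and 993 CPM in treated libraries, against 2816, 3072 and 2841 CPM in untreated ones (-1.72 ± 0.14). AN2734, whose orthologs are structural proteins of the large subunit, had 410.0, 402 and 485 against 1618, 1593 and 1379 CPM (-1.82 ± 0.14). In all of these genes the treated libraries lay close together and well below the untreated ones. The 2 largest rises in the group were AN10139 with a log2 fold change of 1.81 ± 0.33 and dspC, whose orthologs bind preribosomes, with 1.35 ± 0.12. Beside rps1, the assembly genes with the largest falls were AN5441, of ribosomal RNA cleavage, AN4916, and AN1964, whose yeast orthologs are ribosomal protein genes, with log2 fold changes of -1.67, -1.64 and -1.61. All but one of the structural protein genes fell, the exception being AN2263, annotated to large-subunit assembly and nuclear export, with 0.38 ± 0.13, overlapping groups and a call that was lost without treated TNJ92 replicate 1 or 2, or untreated TNJ92 replicate 3 (0.25 to 0.32). Over all fits that left out 1 library, 5 to 10 of the 185 genes rose and 110 to 144 fell.

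The same group did otherwise in THS30. There 85 of the 185 genes were up-regulated and 46 down-regulated, while 22.5% and 21.5% of all tested genes were called in each direction. A test of the difference between the strains (TNJ92 response minus THS30 response, the interaction term) called 149 of the 185 genes lower and 1 higher in TNJ92, against 13.6% lower and 13.2% higher over all genes. Most structural proteins fell in each strain (28 of 29 in TNJ92 and 25 of 29 in THS30, where 2 rose), and for 27 of the 29 the response was lower in TNJ92. Of the 156 other genes, 83 rose in THS30, where the median was 0.38. Lower and higher describe responses here and not levels. The study reported most genes of the group as higher in untreated TNJ92 than in untreated THS30.

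**Figure D2:**
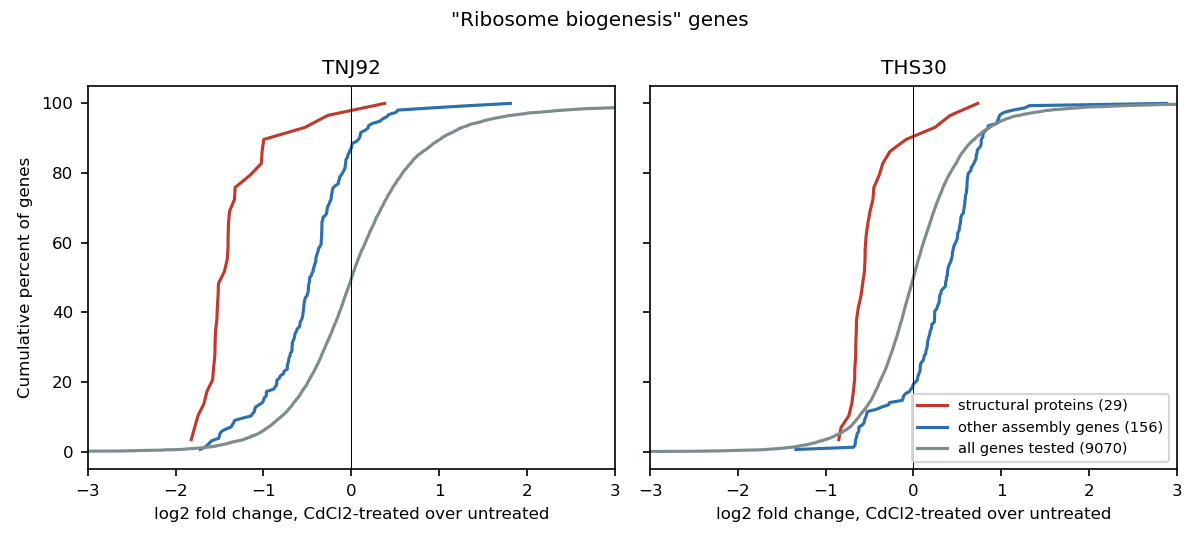
Cumulative percent of genes (vertical axis) at or below each log2 fold change of CdCl2-treated over untreated cultures (horizontal axis) in TNJ92 (left) and THS30 (right), for 29 structural protein genes, 156 other ribosome assembly genes and all 9070 genes tested. The assembly genes lie left of all genes in TNJ92 (median -0.46) and right of them in THS30 (median 0.38).

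"Phosphorelay response regulator" genes, which encode the sensor histidine kinases, phosphotransfer proteins and response regulators upstream of SakA, rose in TNJ92 more often than they fell. All 20 were tested, and 10 were up-regulated and 1 down-regulated (median log2 fold change 0.29). hk-8-7, a putative histidine-containing phosphotransfer protein gene, had 27.1, 30.6 and 24.3 CPM in treated and 9.23, 8.76 and 12.2 CPM in untreated TNJ92 (log2 fold change 1.43 ± 0.13). hk-8-3 had 50.4, 45.4 and 49.5 CPM in treated TNJ92, against 22.3, 22.7 and 24.9 CPM in untreated TNJ92 (1.06 ± 0.09). hk-8-2 had 101, 95.3 and 94.5 CPM after treatment and 48.7, 48.4 and 52.1 CPM without it (0.96 ± 0.11), and hk-8-1 had 47.99, 41.5 and 35.7 against 22.3, 21.5 and 22.8 CPM (0.91 ± 0.12). All 4 were higher in every treated library, which is no further support, as they were picked as the largest rises of the group. hk2 had a log2 fold change of 0.87, fphA, the red-light receptor, 0.62, srrC, a response regulator, 0.50, hk-8-6 0.50, tcsA 0.39 and hk-9 0.36. phkB was the one member that fell (-0.29 ± 0.10), and its call was lost without treated TNJ92 replicate 1 or 3, or untreated TNJ92 replicate 1 (-0.27 to -0.20). The call of hk-9 was lost without treated TNJ92 replicate 1 or 2, or untreated TNJ92 replicate 2 or 3 (0.27 to 0.32). Among the members with established places in the osmotic stress route, tcsB, its transmembrane sensor kinase, did not pass the test (0.22, adjusted p = 0.072).

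The study listed predicted binding sites of ATF/CREB-type factors upstream of these genes, and AtfA, the factor of that type deleted in TNJ92, was missing here. One such site is shown for each of the 6 up-regulated members with an ATF match in that search, to give the sequences beside genes that rose without AtfA. Capitals mark the TGACG or CGTCA letters of the ATF/CREB core.
hk-8-3: TGACGtactc
hk-8-2: TGACGtaggc
hk2: TGACGtttga
fphA: TGACGtgcta
hk-8-6: TGACGtgggc
hk-9: TGACGtaggt
The 4 other members with an ATF match in that search did not rise, namely tcsB, phkA and ypdA, which were not called, and phkB, which fell.
tcsB: TGACGtaatg
phkA: gctaaCGTCA
ypdA: aactaCGTCA
phkB: tactaCGTCA
A match of letters is a description and not a site in use. The share of all promoters holding these letters was not analysed here.

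In THS30 only 2 of these genes were up-regulated and 6 were down-regulated. The test of the strain difference called the response of 11 of 20 higher in TNJ92, with 13.2% of all genes called in that direction. Levels are another matter, as the study reported most of these genes as lower in TNJ92 than in THS30 without cadmium. By its account cadmium reduced that difference but did not remove it. The largest differences were those of hk-8-1 (1.72 ± 0.16) and hk-8-2 (1.51 ± 0.15), which rose in TNJ92 and fell in THS30 (log2 fold changes -0.81 and -0.54 in THS30). Below the phosphorelay, sakA, the kinase itself, had 224, 227 and 202 CPM in treated and 189, 191 and 166 CPM in untreated TNJ92 (0.26 ± 0.10), and it was the one member of 8 listed genes of the cascade that rose. sho1, a membrane sensor, fell (-0.55), as did the residual atfA signal (-0.37). The call of sakA was lost without treated TNJ92 replicate 1 or 2, or untreated TNJ92 replicate 1, 2 or 3, or untreated THS30 replicate 2 (0.19 to 0.29), and that of atfA without treated TNJ92 replicate 1 or 2 (-0.32 to -0.26). The response regulator genes srrA and sskA, the kinase genes sskB and mpkC and the phosphotransfer gene ypdA did not pass the test. atfB, which encodes another ATF/CREB-type factor, had 10.7, 7.86 and 6.68 CPM in treated TNJ92, against 5.49, 4.82 and 7.21 CPM in untreated TNJ92 (0.52 ± 0.19), with groups that overlapped and a call that was lost without treated TNJ92 replicate 1, or untreated TNJ92 replicate 1 or 2 (0.31 to 0.47). In THS30 atfB fell by 1.23 on the log2 scale, and the strains differed by 1.75 ± 0.25.

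**Figure D3:**
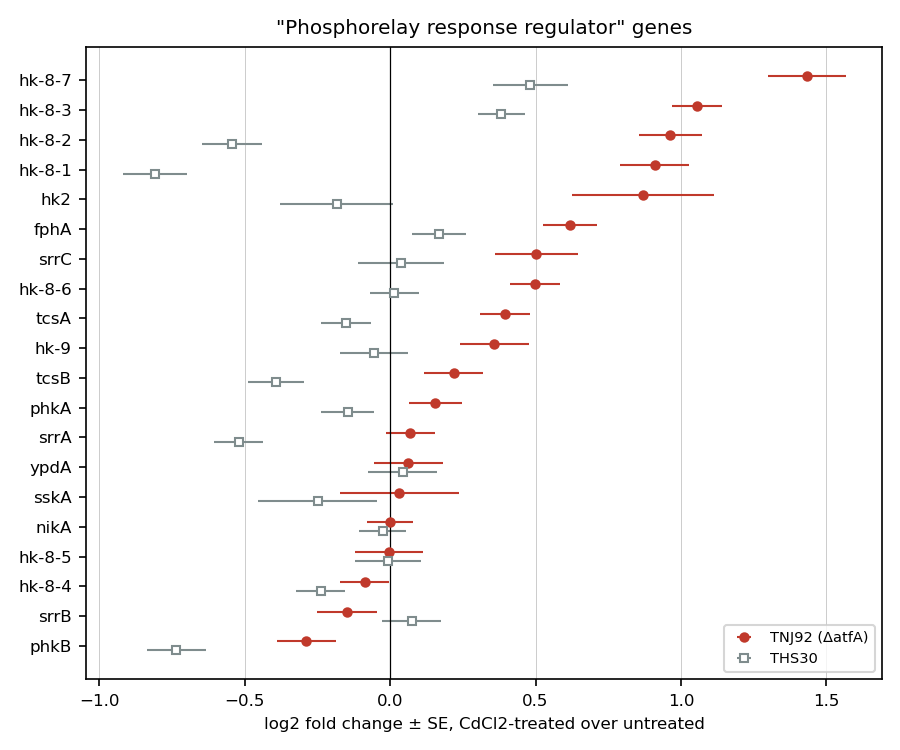
Log2 fold changes ± SE of CdCl2-treated over untreated cultures (horizontal axis) of the 20 "Phosphorelay response regulator" genes in TNJ92 (filled circles) and THS30 (open squares), 3 libraries per group. TNJ92 lies right of THS30 for most members, by 1.72 for hk-8-1 and 1.51 for hk-8-2.

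Heat shock proteins bind unfolded proteins. Of 7 listed genes of cytosolic and mitochondrial chaperones 4 rose, 1 fell and 2 did not pass the test. hsp90 had 6011, 7170.3 and 6797 CPM in treated and 1859, 2243 and 2471 CPM in untreated TNJ92 (log2 fold change 1.60 ± 0.13). sti1, a co-chaperone linking Hsp70 and Hsp90, had 1513, 1798 and 1709 CPM in treated libraries, against 454, 550.4 and 567 CPM in untreated ones (1.68 ± 0.12). hsp70 had 6188, 7709.6 and 7739 against 2978, 3726 and 3930.0 CPM (1.02 ± 0.13). In these genes the lowest treated value exceeded the highest untreated value. hsp60, the mitochondrial chaperonin, had a log2 fold change of 0.60, and ssz1, a ribosome-associated Hsp70, fell by 0.71. The rise was greater in TNJ92 than in THS30 for hsp90 (difference 1.19 ± 0.18), sti1 (1.08 ± 0.16), hsp70 (0.93 ± 0.18) and hsp60 (0.65 ± 0.20), and ssz1 differed in the other direction (-1.32 ± 0.13). The call of the hsp60 difference was lost without treated TNJ92 replicate 3, or untreated TNJ92 replicate 1, or treated THS30 replicate 1, or untreated THS30 replicate 2 or 3 (0.51 to 0.62). awh11 and hsp78 did not pass the test in TNJ92.

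Of 6 listed genes of folding and the unfolded protein response in the endoplasmic reticulum 4 rose and none fell. clxA, the calnexin gene, had 1718, 1843 and 1731 CPM in treated and 606, 583 and 581 CPM in untreated TNJ92 (1.58 ± 0.11), pdiA, protein disulfide isomerase, had 1472, 1463 and 1261 against 647, 636 and 652 CPM (1.12 ± 0.10), and bipA, the lumenal Hsp70, had 3319.5, 3464 and 3141 against 1839.6, 1739 and 1870.0 CPM (0.87 ± 0.12). All treated libraries exceeded all untreated ones for each. hrdA, of the degradation pathway for misfolded proteins, rose by 0.37. hacA, the transcription factor of the unfolded protein response, and ireA, its activating sensor, were not called. Of 42 "ER to Golgi vesicle-mediated transport" genes, 18 rose and 4 fell (median 0.13). sec23, a component of the COPII coat, rose by 0.70 ± 0.09, and AN3080 and AN4446 by 0.66 and 0.58, while AN2222, annotated to a GTPase activator, fell by 0.96.

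"Autophagy" genes, which build the vesicles that carry cytoplasm to the vacuole, rose in 17 of 26 cases and fell in 2 (median 0.43). atgH, annotated to the protein tag that is joined to phosphatidylethanolamine on the autophagosome membrane, had 389, 396 and 373 CPM in treated and 174, 186 and 178 CPM in untreated TNJ92 (1.10 ± 0.09). atg15, annotated to a vacuolar-type phospholipase, had 53.7, 48.6 and 36.9 CPM after treatment, against 21.96, 20.3 and 25.001 CPM without it (1.05 ± 0.13). AN2076, whose orthologs act in autophagy and protein secretion, rose by 1.09 ± 0.12 and atg26, a sterol glucosyltransferase, by 0.96 ± 0.10. The treated and untreated ranges of these genes were apart. AN0090 and AN7591 were the ones that fell, and over the fits that left out 1 library the falls numbered 0 to 3. In THS30 9 rose and 2 fell, and 7 of the 26 genes had a higher response in TNJ92 by the test of the difference.

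**Figure D4:**
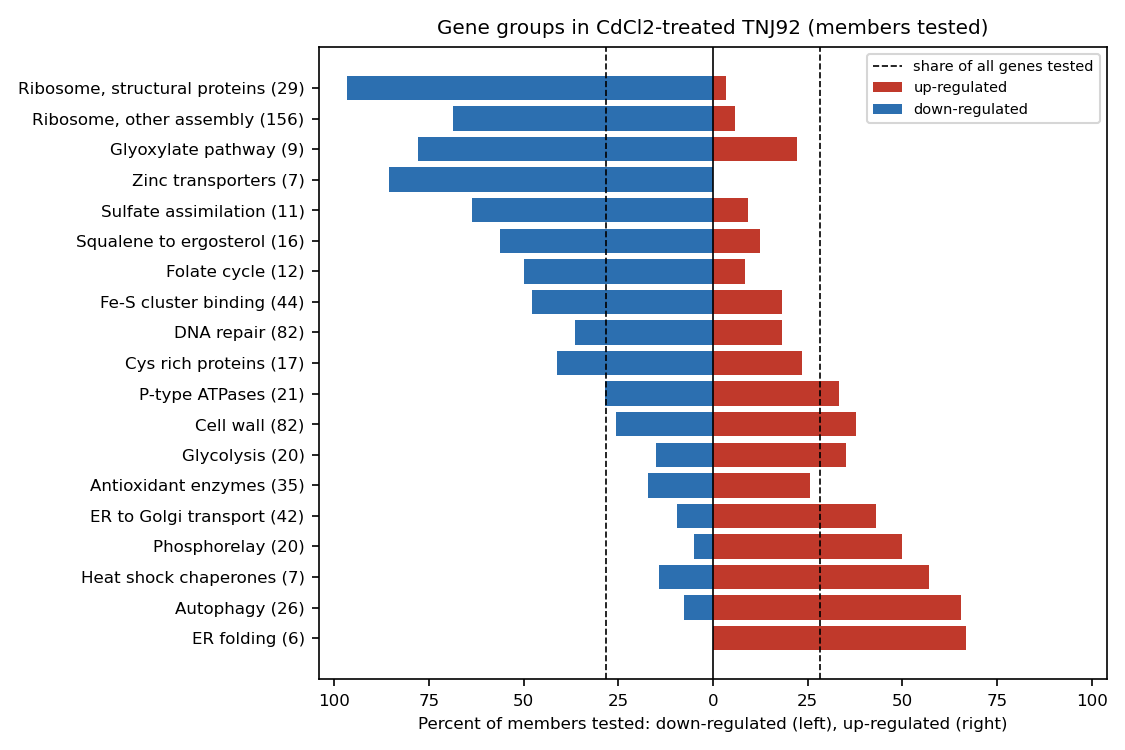
Percent of the tested members of 19 gene groups that were down-regulated (bars to the left) or up-regulated (bars to the right) in CdCl2-treated over untreated TNJ92, with the number of members tested in parentheses. The dashed lines mark the shares of all 9070 genes, 28.2% down and 28.3% up. The bar of the ribosomal structural proteins (28 of 29 down) is the longest.

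Sulfur metabolism supplies the cysteine of glutathione. Of 53 tested "Cys, Met and GSH metabolism" genes 16 rose and 19 fell (30.2% and 35.8%), shares near those of all genes, and the sign of the median (-0.06) turned with scaling by library totals. Of 3 genes of sulfate uptake 1 rose and 2 were not called. This was sB, a sulfate permease, which had 54.9, 52.5 and 34.5 CPM in treated and 23.3, 16.99 and 15.5 CPM in untreated TNJ92 (1.35 ± 0.17). AN1631, listed under methionine and cysteine uptake, fell (-0.50 ± 0.16), a call that was lost without untreated TNJ92 replicate 2 (-0.38), and it rose in THS30 (0.82). In the assimilation of sulfate, 7 of 11 genes fell and 1 rose (median -0.60). sC, ATP sulfurylase, the first enzyme, had 65.7, 57.3 and 57.4 CPM in treated TNJ92, against 257, 218 and 196 CPM in untreated TNJ92 (-1.90 ± 0.14). sD, the next kinase, fell by 0.60 and sA, which reduces the activated sulfate, by 0.40. sF, a sulfite reductase gene, had 46.6, 48.9 and 52.9 against 149, 151 and 140.2 CPM (-1.57 ± 0.18), and AN7600, whose orthologs form hydrogen sulfide, had 102, 109 and 108 against 234, 213 and 223 CPM (-1.07 ± 0.11). For sF, AN7600 and sA the responses of the strains differed, by -1.45 ± 0.26, -1.24 ± 0.16 and -0.93 ± 0.17, and sA rose in THS30 (0.53). The call of sA in TNJ92 was lost without treated TNJ92 replicate 1 (-0.29). The remaining falls were AN7034 and AN1769, bisphosphate nucleotidases (-0.64 and -0.66), and the rise was AN1825, a sulfide oxidoreductase with a mean of 1.88 CPM in treated and 0.374 CPM in untreated TNJ92.

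Downstream of sulfide the picture was mixed. mecB, cystathionine gamma-lyase, which releases cysteine, had 277, 283 and 256 CPM in treated and 106, 128 and 136 CPM in untreated TNJ92 (1.14 ± 0.10). cysD, which makes homocysteine, rose by 1.03 ± 0.09, metE, an acetyltransferase of homoserine, by 1.03 ± 0.11, and AN5019, with a methionine synthase domain, by 1.85 ± 0.19. metH, the abundant methionine synthase, fell to 1531, 1621 and 1565 CPM in treated libraries, against 3473, 2982 and 2862 CPM in untreated ones (-0.98 ± 0.11). The genes of polyamine synthesis spdA and AN8231 (S-adenosylmethionine decarboxylase) fell by 1.21 and 1.24, and mde1, of methionine salvage, by 1.15. For mecB and metE the response was greater in TNJ92 (0.73 ± 0.14 and 0.94 ± 0.16).

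Glutathione genes moved in both directions. AN3150, which encodes gamma-glutamylcysteine synthetase, the first enzyme of glutathione synthesis, had 132, 177 and 176 CPM in treated and 96.6, 149 and 190.2 CPM in untreated TNJ92 and did not pass the test (0.15 ± 0.22, adjusted p = 0.58), and AN12476, glutathione synthase, fell slightly (-0.24 ± 0.09), a call that was lost without treated TNJ92 replicate 1 or 3, or untreated TNJ92 replicate 2 (-0.23 to -0.19). Of 6 genes of glutathione degradation 3 rose. AN2988, whose orthologs are gamma-glutamylcyclotransferases, had 73.998, 80.2 and 61.8 CPM after treatment, against 25.1, 28.2 and 25.1 CPM without it (1.46 ± 0.11), and dugC and dugB rose by 0.58 and 0.46. AN7729, whose orthologs move glutathione conjugates and phytochelatins into the vacuole, had 253, 294 and 242 against 129.5, 113 and 134 CPM (1.07 ± 0.11). Treated and untreated libraries were separate for AN2988 and AN7729. hmt1, annotated to the transport of phytochelatins, was not called (-0.16), and optF, a glutathione importer, fell (-0.44), a call that was lost without treated TNJ92 replicate 3, or untreated TNJ92 replicate 1 (-0.35 to -0.29).

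Putative Cd2+ efflux pump genes showed small changes. crpA, a copper and cadmium P-type pump, had 179, 190.0 and 253 CPM in treated and 174, 169.8 and 159 CPM in untreated TNJ92 (0.30 ± 0.12, adjusted p = 0.032 by edgeR), a call that was lost without treated TNJ92 replicate 3, or untreated TNJ92 replicate 2 or 3 (0.14 to 0.31). AN5633, with a cation transporter annotation, rose by 0.61 ± 0.15. zrfD and AN1795 fell (-0.72 and -0.36), and ygA, a copper transporter, was not called (-0.19, adjusted p = 0.16). Among 17 tested "Cys rich protein" genes 4 rose and 7 fell. Beside crdA and AN0759 the falls included AN11288 (-1.31) and AN5111 (-0.84), and the rises were AN7290 (1.35 ± 0.11), AN11083 (0.72), AN8544 (0.45) and the scarce AN12111, whose call was lost without treated TNJ92 replicate 1 (1.01). AN7290 had 41.4, 48.4 and 47.5 against 15.99, 19.01 and 18.8 CPM.

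Zinc transporter genes fell. Of 7 tested, 6 were down-regulated (median -0.52). Beside zrfC, zrfB, annotated to low-affinity uptake, had 19.9, 16.7 and 16.1 CPM in treated and 83.3, 68.1 and 49.9 CPM in untreated TNJ92 (-1.93 ± 0.22), and zrfD, AN1076, AN1795 and AN7673 fell by 0.72, 0.52, 0.36 and 0.35. The call of AN7673 was lost without treated TNJ92 replicate 2 or 3, or untreated TNJ92 replicate 1 (-0.31 to -0.28). zrfA did not pass the test (0.27). In THS30 5 of the 7 fell, zrfA among them (-0.54). Of 10 genes of iron regulation and siderophores 2 rose and 4 fell. sidC, which makes ferricrocin, fell by 1.14, sidD, of fusarinine synthesis, by 0.77, hapX, the regulator of iron starvation, by 0.52 and sreA, the repressor of iron uptake, by 0.45, while the siderophore transporter genes mirD and mirC rose by 0.84 and 0.39. The treated and untreated libraries of mirD overlapped, and its call was lost without treated TNJ92 replicate 1, or untreated TNJ92 replicate 2 or 3, or treated THS30 replicate 1, 2 or 3, or untreated THS30 replicate 2 (0.35 to 0.93). sidF, sidH, sidI and mirB were not called.

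"Fe-S cluster binding protein" genes fell more often than they rose, in 21 against 8 of 44 tested members (median -0.18). Beside acoA, lysF, homoaconitase of lysine synthesis, had 45.8, 43.9 and 47.003 CPM in treated and 169, 175 and 155 CPM in untreated TNJ92 (-1.87 ± 0.12), and AN3894, annotated to an aconitase, had 33.9, 35.3 and 48.9 against 149, 138 and 115 CPM (-1.77 ± 0.18). mcdB, 2-methylcitrate dehydratase, fell by 1.59. All of them were lower in each treated library than in any untreated one. The rises included AN11251 (3.20 ± 0.30), at a mean of 4.54 CPM in treated and 0.492 CPM in untreated TNJ92, AN0447, annotated to iron-sulfur cluster assembly (0.75 ± 0.09), AN7567 (0.67 ± 0.12) and AN5300, a further aconitase-type gene with a mean of 3.59 CPM in treated and 2.101 CPM in untreated cultures, whose call was lost without untreated TNJ92 replicate 3 (0.54). By the test of the strain difference 12 of 44 had a lower and 3 a higher response in TNJ92, and AN3894 was among those with a lower response (-1.47 ± 0.24).

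The "Folate cycle" carries one-carbon units for purine, thymidylate and methionine synthesis. Of 12 genes 1 rose and 6 fell (median -0.19). AN0495, with a formyltetrahydrofolate deformylase domain, was the gene that rose, with 317, 359 and 313 CPM in treated and 63.7, 79.4 and 76.1 CPM in untreated TNJ92 (2.17 ± 0.14). AN1198, an aminomethyltransferase, had 20.7, 19.01 and 19.9 CPM in treated libraries, against 83.4, 94.7 and 113 CPM in untreated ones (-2.28 ± 0.15). AN2998, a multifunctional enzyme of one-carbon metabolism, had 112, 119.8 and 120.1 against 405, 424 and 424 CPM (-1.83 ± 0.09), and purH, of purine synthesis, had 186, 193 and 194 against 452, 426 and 393 CPM (-1.15 ± 0.09). The treated and untreated ranges did not touch in any of the 4. metA, AN3058 and metF fell by 0.62, 0.38 and 0.22, and the call of metF was lost without treated TNJ92 replicate 1, 2 or 3, or untreated TNJ92 replicate 1 (-0.22 to -0.16). AN7028 (thymidylate synthase), AN4776, AN6108 (dihydrofolate reductase), AN1524 and AN5738 were not called in TNJ92, and all 5 rose in THS30. The difference between the strains passed its own test for AN5738 (-0.60 ± 0.14), AN6108 (-0.43 ± 0.15) and AN1524 (-0.36 ± 0.11), but not for AN7028 and AN4776. These calls were lost without treated TNJ92 replicate 1, 2 or 3, or untreated TNJ92 replicate 2, or treated THS30 replicate 1 or 2, or untreated THS30 replicate 2 or 3 (-0.44 to -0.36) for AN6108 and without treated TNJ92 replicate 3, or untreated TNJ92 replicate 1 or 2, or treated THS30 replicate 2 or 3, or untreated THS30 replicate 2 or 3 (-0.36 to -0.31) for AN1524.

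In carbon metabolism the genes of the "Glyoxylate pathway", which lets cells build sugars from acetate, fell in 7 and rose in 2 of 9 tested cases (median -0.91). citA, citrate synthase, had 511, 558 and 628 CPM in treated and 1057, 1063 and 1059.9 CPM in untreated TNJ92 (-0.91 ± 0.10). acuE, malate synthase, fell by 1.19, aciA, formate dehydrogenase, fell by 1.32, mcsA, methylcitrate synthase, fell by 1.63, and the malate dehydrogenase genes mdhC and mdhA by 0.81 and 0.47. The call of acuE was lost without treated TNJ92 replicate 2 or 3, or untreated TNJ92 replicate 3 (-1.15 to -0.71). acuD, isocitrate lyase, went the other way, with 40.9, 33.8 and 33.6 CPM after treatment, against 13.1, 12.4 and 18.7 CPM without it (1.29 ± 0.22), and its response differed between the strains (1.81 ± 0.30). acuF, which encodes phosphoenolpyruvate carboxykinase of gluconeogenesis, had 143, 131 and 175 against 452, 576 and 633 CPM (-1.89 ± 0.19).

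"Glycolysis" genes were up-regulated in 7 and down-regulated in 3 of 20 tested cases, with a median of -0.03 whose sign turned with scaling by library totals. The abundant pdcA, pyruvate decarboxylase, had 7585, 7635 and 8706 CPM in treated and 5276, 5732 and 5764 CPM in untreated TNJ92 (0.51 ± 0.12). pdcB, of the same enzyme family, rose by 1.02 ± 0.14, pfkZ by 0.46, and xprF, a non-catalytic hexokinase-like regulator of proteases, by 1.13 ± 0.10. fbaA, aldolase, fell by 0.66, pkiA, pyruvate kinase, fell by 0.56, and hxkC, the other non-catalytic hexokinase, by 1.22. In THS30 10 members fell and 3 rose, and 6 had a higher and 1 a lower response in TNJ92. Over the fits that left out 1 library, 3 to 8 glycolysis genes fell, the most without treated THS30 replicate 3, and 6 to 7 rose. Among stress metabolites, the trehalose genes orlA, treA and ccg9 rose by 0.88, 0.96 and 0.63, and the glycerol genes gldB and glcA fell by 0.60 and 0.35. orlA, trehalose-phosphate phosphatase, had 289, 324 and 258 against 172, 152 and 148 CPM.

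Membrane and wall genes changed in part. Of 16 "Squalene - ergosterol pathway" genes, which make the main fungal sterol, 9 fell and 2 rose (median -0.55). erg4, the last reductase of the route, had 41.98, 42.7 and 43.3 CPM in treated and 135, 116 and 109.8 CPM in untreated TNJ92 (-1.49 ± 0.12). erg2, CYP61A1 and AN11065, the lanosterol cyclase, fell by 1.05, 1.03 and 0.99, and erg4A and AN7575 rose, by 0.81 for erg4A, while the call of AN7575 was lost in most fits that left out 1 library. Among 21 P-type ATPase genes 7 rose and 6 fell (33.3% and 28.6%), shares near those of all genes. pmaA, the proton pump of the plasma membrane, had 1861, 2319.7 and 2419 CPM in treated libraries, against 5116, 4951 and 5472 CPM in untreated ones (-1.24 ± 0.15). enaA, a sodium or potassium pump, had 79.9, 57.4 and 59.7 against 19.6, 42.2 and 33.6 CPM (1.05 ± 0.24), and it fell in THS30 (-0.80), with a strain difference of 1.85 ± 0.33. enaC, pmcC and AN5743 rose by 1.05, 0.86 and 0.71, and enaB fell by 1.09. AN10367 rose by 0.43. Without untreated TNJ92 replicate 3 the falls among P-type ATPase genes numbered 3, as they did with library totals.

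In the cell wall, 82 of 99 listed genes were tested, and 31 rose and 21 fell. These were 37.8% and 25.6%, against 28.3% and 28.2% of all tested genes, and the median log2 fold change was 0.01. celA, similar to cellulose synthase, had 198, 259 and 239.9 CPM in treated and 48.2, 55.9 and 66.4 CPM in untreated TNJ92 (2.03 ± 0.14). dfgB, a mannanase, rose by 1.94 ± 0.15 and crhC, a transglycosidase, by 0.84 ± 0.12. The glucan-processing genes gelB, gelE and btgE fell (-1.26, -1.10 and -1.09), and btgE, the most abundant of them, had 1004.8, 1276 and 1348 against 2852, 2519.9 and 2339 CPM. The falls in biosynthesis numbered 10 of 21, against 6 rises, whereas among hydrolases of glucans and mannans 12 of 29 rose (7 without untreated TNJ92 replicate 1) and 7 fell. In chitin synthesis chs3 and chsF rose by 0.91 and 0.54, and chsA fell by 0.43. Of the cell wall integrity pathway wscB and bckA rose (0.87 and 0.40), pkcA and mcmA fell (-0.31 and -0.66), and the other 4 of 8 were not called.

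Antioxidant enzyme genes, which remove superoxide and peroxides, showed 9 rises and 6 falls among 35 tested genes (25.7% and 17.1%, below the shares of all genes), and 16 rises and 5 falls with scaling by library totals. sodA, copper-zinc superoxide dismutase, had 1604, 1589 and 1529.7 CPM in treated and 1085, 1229 and 1033 CPM in untreated TNJ92 (0.50 ± 0.09), ccp1, cytochrome c peroxidase, had 671, 697 and 662 against 262, 340.1 and 496 CPM (0.89 ± 0.18), and gpxA, glutathione peroxidase, rose by 0.36 ± 0.09. trxB, thioredoxin reductase, fell to 395, 390.0 and 424 CPM in treated libraries, against 761, 671 and 577 CPM in untreated ones (-0.73 ± 0.14). The catalase genes catA, catB, catC and AN8553 did not pass the test. The catalase-peroxidase gene cpeA/catD was not called in TNJ92 either (-0.14 ± 0.18, adjusted p = 0.52), fell in THS30 (-1.52) and differed between the strains (1.38 ± 0.22). AN3255, annotated as a predicted glutathione peroxidase and listed with the glutathione-S-transferases, rose in TNJ92 (1.59 ± 0.14) and fell in THS30 (-1.05). sodB and trxA were not called.

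"DNA repair" genes numbered 82, of which 30 fell and 15 rose. The median of -0.09 changed its sign with scaling by library totals, under which 20 fell and 20 rose. The rises included rad14, of nucleotide excision repair (0.87 ± 0.15), cshA, a homolog of the Cockayne syndrome protein (0.84 ± 0.08), AN3890 (0.95) and AN1564 (1.02), and the falls AN4587, whose orthologs repair alkylated DNA (-1.18 ± 0.16), and AN5114 (-1.06 ± 0.12). In the hand-written list of cell cycle and DNA replication, nimX, nimT and nimE fell by 0.28, 0.34 and 0.59. The list also held mcmA (-0.66), placed there by its symbol, which the study lists in the cell wall integrity pathway and which is counted there above. With library totals 2 of these 4 genes were called. The 1 listed histone gene, hhtA, fell by 0.45. The call of nimX was lost without treated TNJ92 replicate 3 (-0.24). In nitrogen assimilation 5 of 7 genes fell (2 to 6 over the fits that left out 1 library, and 2 with library totals). gltA, glutamate synthase, had 482, 519 and 536 CPM in treated and 1459.7, 1404 and 1263 CPM in untreated TNJ92 (-1.42 ± 0.14), areA, the regulator of nitrogen use, fell by 0.84 and gdhA by 0.41, the last a call that was lost without untreated TNJ92 replicate 2 (-0.37).

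Of 18 tested genes of conidiation and conidia 6 rose (3 to 7 over the fits that left out 1 library) and 1 fell, and of 13 genes of sexual development 2 rose (6 with library totals) and 3 fell. The rises were 33.3% and 15.4%, against 28.3% of all tested genes. The falls were 5.6% and 23.1%, against 28.2%. The conidial genes wetA and abaA did not pass the test. flbD and flbC, upstream activators of conidiation, rose by 1.13 ± 0.13 and 0.97 ± 0.14, and brlA rose by 1.41 ± 0.26, while yA was the conidiation gene that fell. flbD had 83.2, 108 and 108 CPM in treated and 42.5, 45.5 and 48.8 CPM in untreated TNJ92, and its response exceeded that of THS30 (1.32 ± 0.18). dewA had too few counts to be tested. nsdD, an activator of sexual development, rose by 1.20 ± 0.09, and esdC, which is needed early in that program, had 173, 172 and 184 against 418, 491 and 561 CPM (-1.47 ± 0.11). laeA, a global regulator of secondary metabolism, had 23.8, 25.3 and 26.3 CPM after treatment, against 48.2, 44.5 and 42.1 CPM without it (-0.84 ± 0.11), and veA fell by 0.30. preA, a pheromone receptor gene, and ppgA, a pheromone precursor gene, were not called in TNJ92 (-0.12 and 0.21), rose in THS30 (2.58 and 1.91), and differed between the strains (-2.70 ± 0.24 and -1.70 ± 0.16).

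Secondary metabolite clusters behaved one by one. The inp cluster had 5 of 8 genes with enough counts, and all 5 rose. AN3493, of that cluster, had 12.3, 16.9 and 18.9 CPM in treated and 0.477, 1.14 and 1.43 CPM in untreated TNJ92 (3.97 ± 0.38), inpB, its peptide synthetase, had 2.897, 5.19 and 3.75 against 0.159, 0.263 and 0.526 CPM (3.58 ± 0.42), and CYP623B2 rose by 0.85 ± 0.13. AN3490 had summed counts of 41 in treated and 0 in untreated TNJ92, a ratio of 12.8 against a floor of 3 counts over the group that leaves out counting error. Genes of a cluster with few counts can pass the count filter only through the groups where they are high, so the shares that rose in this cluster, in the AN7884 cluster and in the AN7084 cluster are no support for them and are not read against those of all genes. Of 9 tested genes among the 15 of the AN7884 cluster 7 rose, with 36.3, 35.2 and 35.8 CPM in treated and 1.43, 5.96 and 9.76 CPM in untreated TNJ92 for AN7874 (2.63 ± 0.43) and a log2 fold change of 0.69 for the synthetase AN7884. In the AN7084 cluster 6 of 8 tested genes rose, and its polyketide synthase gene fma-PKS did not pass the test. All 3 genes of the microperfuranone cluster fell, and micA, its synthetase, had 50.5, 45.9 and 56.5 against 79.5, 79.4 and 77.6 CPM (-0.63 ± 0.11). Of the other synthetase or synthase genes, AN2924 rose by 1.98 ± 0.30, AN12331 by 0.92 ± 0.13 and AN10486 by 0.90 ± 0.20.

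Over all genes, the response of TNJ92 was set against that of THS30 by the interaction term. In 1193 genes (13.2%) the log2 fold change was higher and in 1229 genes (13.6%) it was lower in TNJ92, and 1964 of the 5122 genes called in TNJ92 were among them. Genes up-regulated in TNJ92 and down-regulated in THS30 numbered 111, and those down-regulated in TNJ92 and up-regulated in THS30 numbered 166. Another 1291 genes rose and 1310 fell in both strains. Several of the largest positive differences belonged to genes that were scarce in untreated TNJ92 and abundant in THS30. AN9285 had 9.14, 10.5 and 10.1 CPM in treated and 0.716, 0.701 and 0.826 CPM in untreated TNJ92, against 839, 791 and 984 CPM in treated and 758, 767 and 777 CPM in untreated THS30 (difference 3.52 ± 0.21). AN3519 had 3.94, 3.97 and 2.403 CPM in treated and 0, 0.175 and 0.375 CPM in untreated TNJ92 (difference 5.39 ± 0.49), while it fell in THS30 (-1.26), and AN3518 and AN9163 had differences of 4.43 and 3.39. AN6398 and AN8959 had summed counts of 13 and 5 in treated and 0 in untreated TNJ92. Against a floor of 3 counts over the group these are ratios of 4.05 and 1.56, which leave out the counting error of the treated counts. AN8608 was one of the exceptions: it was scarce in both untreated groups and rose in TNJ92 alone, with 19.3, 19.7 and 22.2 CPM in treated and 0.875, 1.93 and 1.28 CPM in untreated TNJ92, against 1.48, 1.42 and 1.17 and 1.66, 0.933 and 0.999 CPM in treated and untreated THS30 (difference 3.69 ± 0.41).

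Most of the largest negative differences came in a pair of patterns. AN7204 had 8.25, 6.72 and 10.1 CPM in treated and 111, 83.7 and 66.5 CPM in untreated TNJ92, against 4.26, 5.13 and 6.85 CPM in treated and 7.11, 6.699 and 6.900 CPM in untreated THS30 (difference -3.03 ± 0.31), so that only untreated TNJ92 stood apart from the other groups. AN7773 and AN7774 did likewise, with differences of -2.68 ± 0.25 and -3.31 ± 0.31. In the other pattern the gene rose in THS30 and was not called in TNJ92, as in AN10325, with 0.297, 0.076 and 0.225 CPM in treated and 0.08, 0 and 0.526 CPM in untreated TNJ92, against 28.6, 34.3 and 23.8 CPM in treated and 1.42, 2.37 and 2.81 CPM in untreated THS30 (difference -3.76 ± 1.05). Without untreated TNJ92 replicate 3 the difference of AN10325 was -1.66 and no longer called. AN10815, AN0107 and AN1941 were of that kind (-2.52 ± 0.28, -2.55 ± 0.31 and -2.30 ± 0.65), and the call of AN1941 was lost without treated TNJ92 replicate 2, or treated THS30 replicate 2, or untreated THS30 replicate 2 (-2.16 to -2.06). AN5033 and AN0500 were of neither pattern, as they fell in TNJ92 and rose in THS30 (log2 fold changes -1.03 and -2.38 in TNJ92, 1.43 and 0.90 in THS30).

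**Figure D5:**
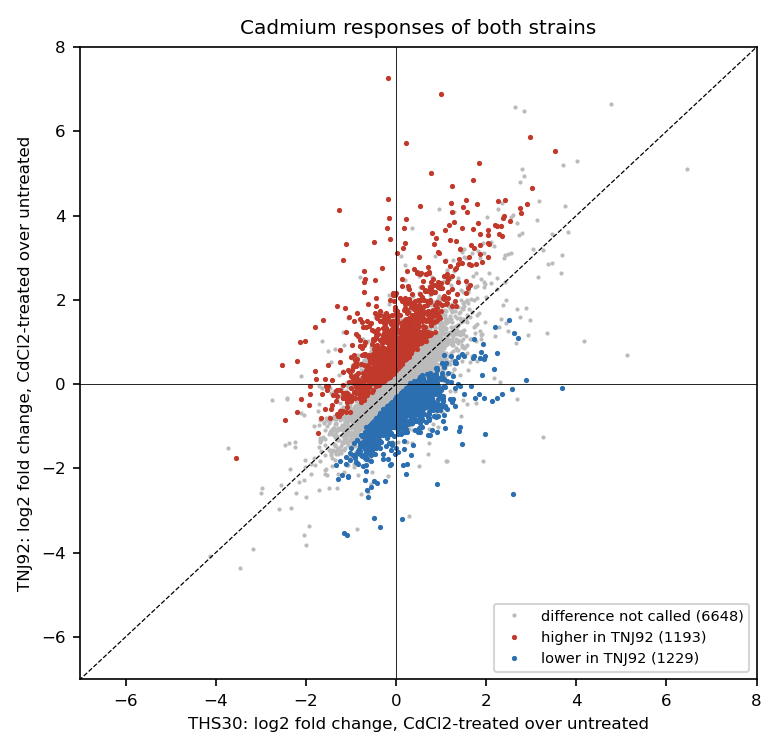
Log2 fold change of CdCl2-treated over untreated cultures for each of 9070 genes, with THS30 on the horizontal and TNJ92 on the vertical axis, coloured where the interaction term had an adjusted p under 0.05. Of these genes 1193 lie above the dashed line of equal responses and 1229 below it.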

How the data were processed

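RNA sequencing libraries of submerged *A. nidulans* cultures were analysed from the deposited table, which gives for each of 12 samples a read count, a transcript length and an RPKM (depth-scaled and length-scaled read count) value for 10988 features. The counts had been made by the authors from reads checked with FastQC and aligned with HISAT2 2.1.0 to the *A. nidulans* FGSC A4 genome, and DESeq2 1.20.0 is named in the submitters' processing notes. Not given in the sources used here were the counting program and its strand setting, so that reads of overlapping and antisense genes, and of close paralogs, may not be told apart. The deposited RPKM values followed from count, length and column total to a relative difference of 6.5e-15 and served only to rank genes by level per length. The transcript lengths, per the file headers, are other values of the same table.

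Groups were taken from the labels. Counts of genes passing filterByExpr (minimum count of 10) were normalised by TMM and fitted with edgeR 4.0.16 (limma 3.58.1, R 4.3.3) over all 12 libraries with 1 coefficient per group and robust quasi-likelihood dispersions, and p-values were adjusted by the Benjamini-Hochberg method over the 9070 features tested, with a threshold of 0.05. Standard errors were derived from the F statistics. The common biological coefficient of variation was 0.109. The fit was tested on simulated counts. Alternatives were DESeq2 1.42.0, RLE size factors, library totals, no filter, the TNJ92 libraries alone, a replicate block, each library left out in turn and a log2 fold change of at least 1.

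The genes and lists were chosen with earlier results of these data known. Most lists are the gene groups of the study's supplement, whose annotation also gave the roles, and the rest were written by hand, with 112 of their 261 symbols matched to 1 gene. Named genes were the 15 largest rises and falls with groups that did not overlap and a mean of at least 10 CPM in the higher group, up to 4 risers and 4 fallers per list and the members of short lists, the 10 largest strain differences in each direction, genes that the study names, and the 10 most abundant genes per kilobase. Members whose call rested on single libraries were in part left out. Counts of motifs over all promoters and of lists by product name were not analysed here.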

Additional observations from a re-analysis of the deposited data

Results flagged for a closer look

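For 17 genes named with values, CdCl2 moved the level in opposite directions in the strains, both changes passing edgeR's quasi-likelihood test. The interaction term was called for every tested gene with opposite calls, so its call is no further support here. Some of the 17 were also named for their large strain difference. Over all tested genes 111 rose in TNJ92 and fell in THS30, and 166 did the reverse. The balance among the 17 depends on which genes were named and is not that of all genes. Most of the 17 rose in TNJ92 and fell in THS30, with a TNJ92 minus THS30 difference in log2 fold change of 5.39 for AN3519, 4.43 for AN3518, 3.39 for AN9163, 2.64 for AN3255, 2.35 for AN12111, 1.85 for enaA, 1.75 for atfB, 1.72 for hk-8-1, 1.51 for hk-8-2, 1.12 for pmcC and 1.10 for sakA. maiA, of tyrosine breakdown, did likewise with a difference of 1.69 and an interaction adjusted p of 0.0114. AN0500, AN5033, AN1631, the chaperone gene ssz1 and the sulfate assimilation gene sA fell in TNJ92 and rose in THS30, with differences of -3.28, -2.45, -1.32, -1.32 and -0.93. The adjusted p of the interaction for the other genes lay between 5.89e-08 for AN3255 and 0.00477 for AN12111. For sakA, atfB, maiA, AN12111, AN1631 and sA the opposite directions are less secure. Their calls in TNJ92 were lost in at least 1 fit that left out a single library, and that of sakA in 6 of 12.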

How the results depend on the processing

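The counts of genes up-regulated and down-regulated in TNJ92 stayed within 1.5 times those of the edgeR fit under DESeq2, RLE size factors, library totals, no filter and the TNJ92 libraries alone, and 4401 to 5101 of the 5122 called genes remained called there. Leaving out single libraries gave 2310 to 2587 up-regulated and 2316 to 2713 down-regulated genes, and 946 to 1341 higher and 935 to 1321 lower strain differences. Requiring a log2 fold change of at least 1 left 910 up-regulated and 523 down-regulated genes, and 456 higher and 255 lower differences, as fewer genes can pass it. Same-numbered treated and untreated libraries of TNJ92 had correlations of their deviations of 0.31, -0.12 and 0.35. Treated replicate 1 with untreated replicate 3 gave -0.35, and treated replicate 3 with untreated replicate 1 gave -0.38. Replicates 1 and 3 thus correlated best with their own number, and replicate 2 did not. The numbers were not taken to pair samples in the main fit, and whether same-numbered libraries share a batch was not tested. With a replicate block 2732 genes were up-regulated and 2723 down-regulated in TNJ92, 1435 differences were higher and 1416 lower, and 5112 of the 5122 genes remained called; of the genes named with values, all 226 kept their side of the threshold.

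Of the 226 genes named with values in TNJ92, 194 kept direction and side of the threshold under the alternatives other than the minimum log2 fold change, as did 38 of 43 strain differences. Members whose call rested on single libraries had in part been left out of the naming. The 194 of 226 is therefore no measure of how stable calls are over all genes. Of the 216 of these genes that were called, 113 have a log2 fold change of at least 1 in size. Library totals ended the calls of AN12476, AN1631, AN1795, AN7673, atfA, gdhA, glcA, metF, nimT, nimX, optF, phkB, pkcA, sA and veA, and the differences of AN1524 and AN6108. The TNJ92 libraries alone ended those of acuE, atfB, crpA, maiA and mirD, DESeq2 those of maiA and mirD, and the missing filter that of sakA and the difference of AN6108. The sign turned only in genes that were not called. These were AN10325 (0.05 with library totals, -0.60 to 2.01 with single libraries left out), cpeA/catD (0.00 with library totals, -0.34 to 0.02 with single libraries left out), preA (0.03 with library totals, -0.25 to 0.01 with single libraries left out) and AN3150 (-0.07 to 0.40 with single libraries left out). The cause was not tested. Having 3 libraries per group and 1 time point limits what can be seen, and counts near 0, as in AN5056 or AN10325, leave fold changes wide.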

Other observations

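Neighbouring genes of TNJ92 that rose or fell together were looked up by their order in the RefSeq annotation, with runs of at least 5 genes called in 1 direction, a choice made after the values were seen and with no test. The longest run of rises was AN1893 to AN1900, 8 genes with a median log2 fold change of 1.26. It holds genes of tyrosine and phenylalanine breakdown. hmgA, homogentisate dioxygenase, had 7.21, 7.18 and 7.96 CPM in treated and 1.75, 2.37 and 1.802 CPM in untreated TNJ92 (log2 fold change 1.92 ± 0.23), fahA, fumarylacetoacetate hydrolase, had 2.82, 2.67 and 3.003 against 1.43, 1.05 and 1.35 CPM (1.13 ± 0.30), and maiA, maleylacetoacetate isomerase, had 1.78, 1.91 and 1.13 against 1.19, 0.438 and 0.901 CPM (0.90 ± 0.35). hmgX had the largest rise of the run (3.12). The treated and untreated libraries overlapped for maiA, whose call was lost without treated TNJ92 replicate 1 or 2, or untreated TNJ92 replicate 2 or 3 (0.61 to 0.94) and with DESeq2, and were apart for the others. In THS30 maiA fell (-0.79), and its responses differed between the strains (1.69 ± 0.46), while the difference was not called for hmgA, fahA, hmgX and AN1899.

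The longest run of falls was AN6837 to AN6844, also 8 genes, with a median of -0.46. It includes tubC, a beta-tubulin gene, with 407, 412 and 419 CPM in treated and 639, 632 and 631 CPM in untreated TNJ92 (-0.62 ± 0.08). Among the 10 most abundant genes per kilobase in treated TNJ92, AN2000 rose, with 4905, 5574 and 5505 CPM in treated and 1894, 2457 and 2541 CPM in untreated TNJ92 (1.21 ± 0.12), as did pdcA, and AN4575 and AN8009 fell (-0.67 and -0.41). gpdA, thiA, prxA, AN11489, AN11787 and AN20005 were not called, with gpdA, glyceraldehyde-3-phosphate dehydrogenase, at 6353, 6543 and 7130.3 against 5923, 5968 and 5419 CPM.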
